A study of Mus musculus with 16 samples.

Results

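The 34 genes described here belong to the programme of haematopoietic stem and progenitor cells: receptors and surface proteins of these cells, their growth factors, and the transcription factors and regulators that keep them undifferentiated. They were taken by name from the array's probe annotation, where 47 of the array's 55681 probes and 34 of its 34650 gene names matched. Bone marrow RNA from 16 mice was hybridised to 1-colour Agilent arrays, 1 array for each mouse, 8 KO chimeras and 8 controls. The KO chimeras were C57BL/6J recipients, lethally irradiated with 950 rad, that received whole marrow from donors with a double adrenergic receptor knockout by a single retro-orbital injection. The labels give a ratio of 1 to 4 for donor to C57BL/6J, without saying what was counted, and a recovery of 2 to 3 months. Lethal irradiation of C57BL/6J with 950 rad is also given for the controls, and the protocol text attached to them is that of the chimeras. The labels name no marrow donor for the controls and give no age or sex. Receptor loss, the donors' genetic background and the graft itself therefore cannot be told apart in this comparison. The share of donor cells in each mouse was not given.

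Stem cells in marrow are held quiescent or driven to divide by signals such as stem cell factor, the ligand of the receptor tyrosine kinase KIT. A set of transcription factors that bind DNA together, among them GATA2, TAL1, LYL1, LMO2, RUNX1 and ERG, maintains stem and progenitor identity, and HOXA and HOXB proteins act with MEIS1 to sustain self-renewal. In bulk marrow many of these genes are also read from committed progenitors and from mast cells, megakaryocytes and erythroid precursors. The arrays measured whole marrow, so fewer cells of a type and less RNA per cell cannot be told apart.

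Every value below is a level on the log2 scale relative to the 75th percentile of signal of its array, and every difference is KO chimera minus control on the same scale. The 75th percentile of signal of the KO chimeras lay between 127 and 545 and that of the controls between 231 and 558 (exact permutation p = 0.301, two-sided, 8 mice per group). Probes well above background numbered 27745 to 37103 and 29296 to 38738 (exact permutation p = 0.0718, two-sided). All 4 pan-leukocyte markers listed for marrow (Ptprc, Spn, Coro1a and Lcp1) were above background on all 16 arrays. Of the 6 slides, 5 carried mice of both groups, and each of 2 scan days covered 4 KO chimeras and 4 controls.

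Of the 34 genes, 30 were tested and 4 were too dim to be kept. The stem cell factor receptor gene Kit was lower in every KO chimera than in any control, and with it fell the transcription factor genes Meis1, Gata2, Hoxa7 and Hlf and the surface antigen gene Ly6a. Procr, which encodes the endothelial protein C receptor, and Runx1 on its brighter probe rose. That made 2 genes higher and 6 lower, with 22 that did not pass (limma, Benjamini-Hochberg adjusted p under 0.05 over 23053 genes). Over all genes tested 10.2% were called higher and 12.1% lower, 22.3% in either direction, so the share of 26.7% among the 30 genes lies near the background. Their median difference was -0.14, with 20 of 30 negative, beside a median of -0.02 over all genes. The 8 KO and 8 control values did not overlap for 6.13% of all genes tested and, among the 30, for Kit alone.

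**Figure D1:**
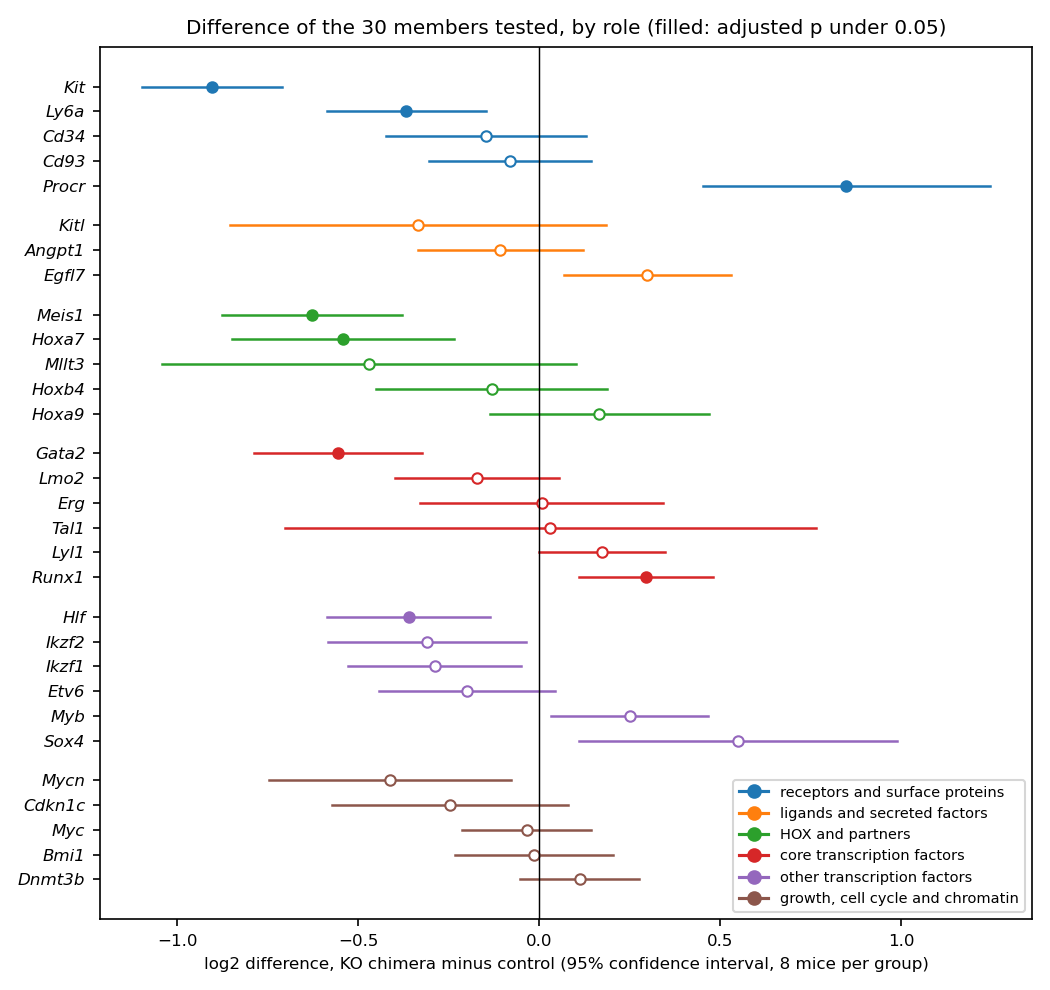
Log2 difference, KO chimera minus control, of the 30 genes tested, grouped by role, with the 95% confidence interval of the limma fit (8 mice per group) and filled points for adjusted p under 0.05. Kit lies at the left end with -0.90 and Procr at the right end with 0.85, and 22 of the 30 points are open.

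Entries in the promoter table were found for 27 of the 34 genes, with 38 start sites, and for 7 of the 8 genes called. The stretches just before the transcription starts of 6 of these are shown, the 5 with an entry that fell and Procr, which rose, so that genes that moved can be set side by side. Runx1 was left out because its call rests on the probe read, and a second start listed for Kit, whose run overlaps the first, was left out as well. Each run is the 250 bases before a start in RefSeq's annotation of GRCm38.p6, read 5′ to 3′ in the direction of the gene. Capitals mark 5 motifs searched on both strands: the GATA core GATAA, the cAMP response core TGACG, its full form TGACGTCA, which holds TGACG on each strand, the E-box CAGNTG and the GC box CCGCCC. The positions are chr5:75574737-75574986 for Kit on the plus strand, chr6:88193641-88193890 and chr6:88198414-88198663 for the 2 starts of Gata2 on the plus strand, chr11:19018970-19019219 for Meis1 and chr6:52218574-52218823 for Hoxa7 on the minus strand, chr11:90390918-90391167 for Hlf on the minus strand and chr2:155750967-155751216 for Procr on the plus strand.
Kit: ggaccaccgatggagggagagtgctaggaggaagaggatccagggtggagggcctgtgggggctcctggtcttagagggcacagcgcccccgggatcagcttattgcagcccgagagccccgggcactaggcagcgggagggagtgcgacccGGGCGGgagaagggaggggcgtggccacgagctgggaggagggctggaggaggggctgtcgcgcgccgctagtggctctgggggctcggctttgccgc
Gata2, start 1: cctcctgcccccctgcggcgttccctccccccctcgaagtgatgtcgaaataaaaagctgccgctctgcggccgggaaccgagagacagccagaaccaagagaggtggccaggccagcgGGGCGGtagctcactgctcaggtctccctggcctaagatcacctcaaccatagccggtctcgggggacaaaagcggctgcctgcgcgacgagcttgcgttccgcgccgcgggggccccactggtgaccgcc
Gata2, start 2: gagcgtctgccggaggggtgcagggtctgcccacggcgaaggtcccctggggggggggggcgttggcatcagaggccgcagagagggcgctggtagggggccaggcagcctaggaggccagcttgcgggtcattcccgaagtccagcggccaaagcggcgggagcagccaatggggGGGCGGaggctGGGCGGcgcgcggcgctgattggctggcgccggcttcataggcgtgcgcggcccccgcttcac
Meis1: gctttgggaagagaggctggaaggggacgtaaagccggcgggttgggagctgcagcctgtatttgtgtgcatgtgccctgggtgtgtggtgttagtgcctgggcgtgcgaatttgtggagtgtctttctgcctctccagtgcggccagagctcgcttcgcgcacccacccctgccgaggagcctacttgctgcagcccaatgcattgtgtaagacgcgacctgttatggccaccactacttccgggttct
Hoxa7: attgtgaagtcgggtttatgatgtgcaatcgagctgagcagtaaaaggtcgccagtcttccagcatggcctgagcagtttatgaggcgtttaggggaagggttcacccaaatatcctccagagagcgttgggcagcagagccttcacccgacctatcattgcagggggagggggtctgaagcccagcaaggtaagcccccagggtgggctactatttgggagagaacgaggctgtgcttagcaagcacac
Hlf: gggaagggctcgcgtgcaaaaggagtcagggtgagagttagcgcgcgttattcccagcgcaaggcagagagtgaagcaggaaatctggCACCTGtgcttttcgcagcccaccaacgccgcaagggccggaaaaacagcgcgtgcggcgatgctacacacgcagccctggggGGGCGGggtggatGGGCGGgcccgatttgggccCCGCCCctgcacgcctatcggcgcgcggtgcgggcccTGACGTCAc
Procr: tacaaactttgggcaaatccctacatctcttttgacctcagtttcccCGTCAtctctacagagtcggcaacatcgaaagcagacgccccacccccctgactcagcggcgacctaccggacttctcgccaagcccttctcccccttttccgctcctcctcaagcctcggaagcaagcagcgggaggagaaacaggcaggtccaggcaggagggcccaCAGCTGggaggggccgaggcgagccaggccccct

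None of these runs held GATAA, which was found at 5 of the 38 starts (13.2%; those of Egfl7, Erg, Hoxa9, Sox4 and Tal1) and in 22.6% of all 32851 promoters of the table. The Hlf run holds the full TGACGTCA, 9 bases before the start, a sequence present in 1.55% of all promoters and at 1 of the 38 starts. TGACG stood at 7 of the 38 starts (18.4%, against 17.8% of all), among the called genes at those of Hlf and Procr. CAGNTG was found at 13 starts (34.2%, against 44.8%) and CCGCCC at 20 (52.6%, against 32.7%). Median GC content was 60.0% at the 38 starts and 52.4% over all promoters, and the Meis1 and Hoxa7 runs hold none of the motifs. These matches describe the letters of the runs only.

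Among receptors and surface proteins, 1 of 5 rose, 2 fell and 2 did not pass. Kit encodes the receptor for stem cell factor. Its values in KO chimeras had a lowest of 0.64, a median of 0.86 and a highest of 1.06. In controls they ran from 1.48 through a median of 1.79 to 1.96. All 8 KO chimeras lay below the lowest control, and no value of either group fell in the gap between them. Kit differed by -0.90 ± 0.09 (SE, n = 8 per group, limma adjusted p = 1.44e-06), a 1.87-fold lower signal. Its probe, with 2 spots on each array, is placed by the files on chromosome 5, 76052394 to 76052453 (mouse build mm9, plus strand); exons were not assigned. Within scan day 1 alone the difference was -0.996 (limma adjusted p = 0.00233) and within scan day 2 -0.81 (limma adjusted p = 0.0062), each with 4 mice per group. Kit was the only one of the 8 genes called that passed on both days, where 6.98% and 10% of all genes tested passed.

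**Figure D2:**
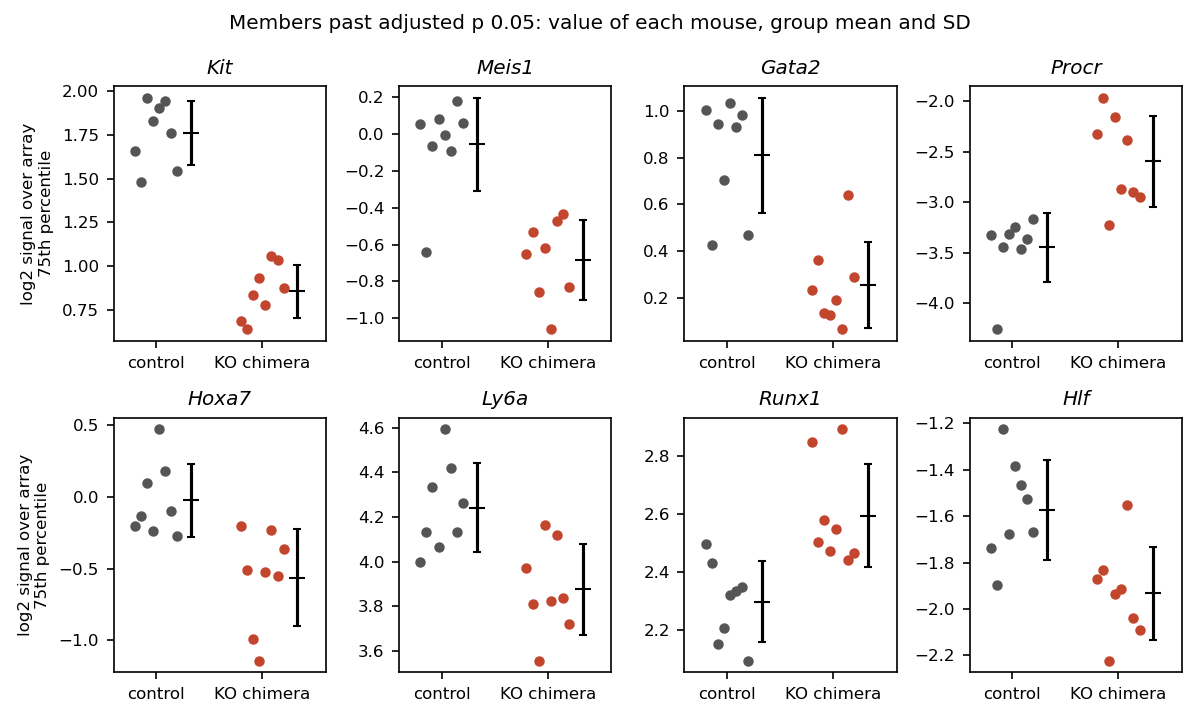
Level of each mouse for the 8 genes past adjusted p 0.05 (points; log2 signal relative to the 75th percentile of the array), with the group mean and SD (n = 8 per group) to the right of the points; each panel has its own scale. The Kit values of the groups are separated, from 0.64 to 1.06 in KO chimeras, against 1.48 to 1.96 in controls, and the other 7 genes overlap.

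Ly6a encodes the surface antigen Sca-1, used with KIT to sort mouse stem cells and also borne by lymphocytes. It ran from 3.56 through a median of 3.83 to 4.16 in KO chimeras. In controls it ran from 4.00 through 4.2 to 4.59. The groups overlapped, with 6 of the 8 KO chimeras below the lowest control. Ly6a fell by 0.37 ± 0.10 (SE, n = 8 per group, limma adjusted p = 0.0169), which is 1.29-fold lower. With slide as a block the difference was -0.35 and no longer passed (limma adjusted p = 0.0554), nor did the 4 mice per group of scan day 1 (-0.37, limma adjusted p = 0.275) or day 2 (-0.36, limma adjusted p = 0.0883) alone. Ly6a belongs to a family of similar genes, so its probe may also read a close relative. That probe lies on chromosome 15, 74825553 to 74825612 (mm9). Of 9 T cell markers 1 was higher and 4 lower, 55.6% called against 22.3% over all genes tested. None of the 9 was below background on all arrays. The marker lists were chosen with earlier results of these data known, so such a share gives no separate support. The summed level of the 7 with a value on every array was 25.0 to 32.0 in KO chimeras and 16.9 to 24.9 in controls. Cd3d alone, which was higher by 2.18, carried that sum upward. Without it the sum was 8.29 to 14.6 against 14.0 to 21.2, and 8 of the 9 markers had a negative difference (median -0.43). The part of T cells in the Ly6a difference was not tested.

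Procr encodes the endothelial protein C receptor, a stem cell marker that endothelium bears as well. Its values in KO chimeras ran from -3.23 through a median of -2.63 to -1.97. Control values ran from -4.26 through -3.34 to -3.16. KO chimera 3 alone lay within the control range, and the other 7 KO chimeras lay above the highest control. Procr rose by 0.85 ± 0.19 (SE, n = 8 per group, limma adjusted p = 0.00333), a 1.80-fold higher signal. It was dim but well above background on all 16 arrays. After normexp background correction with quantile normalization the difference was 0.31, still past the threshold (limma adjusted p = 0.00479). Within scan days Procr read 0.91 and 0.79, short of the threshold with 4 mice per group (limma adjusted p = 0.0655 and 0.085). The probe lies on chromosome 2, 155580945 to 155581004 (mm9). Endothelial marker genes went both ways beside it, with 2 higher of 10 tested (Stab2 and Tie1) and 3 lower (Cdh5, Flt1 and Flt4). That is 50% called, against 22.3% over all genes tested. Flt4 was well above background on 0 KO chimera and 6 control arrays and Cdh5 on 5 and 8. Both were therefore kept through the controls alone, where they were high. Flt1 was well above background on all arrays. The summed level of the 10 (linear, relative to the 75th percentile) was 26.4 to 38.8 in KO chimeras and 19.6 to 29.4 in controls. Stab2 carried the higher sum, since without it the ranges were 19.1 to 29.7 and 19.1 to 28.9, and the median difference of the 10 was -0.15. Of 14 endothelial markers listed, Emcn and Sox18 were above background on no array, and Tek and Sox17 were also not tested. The part of endothelial cells in the Procr difference was not tested.

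Cd34, a sialomucin of progenitors and endothelium, and Cd93, a lectin-like receptor of early progenitors, did not pass. Cd34 differed by -0.15 ± 0.13 (limma adjusted p = 0.472) and Cd93 by -0.08 ± 0.11 (limma adjusted p = 0.646, n = 8 per group). Both were well above background on all arrays. A dimmer Cd34 probe read 0.39, and the difference between the 2 Cd34 probes did not pass (exact permutation p = 0.0197, 0.0855 after Benjamini-Hochberg adjustment over 13 pairs of probes, n = 8 per group).

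Of the 3 ligands and secreted factors, 0 passed. Kitl, which encodes stem cell factor itself, differed by -0.33 ± 0.25 (limma adjusted p = 0.373). It was well above background on 7 control arrays but on only 2 KO chimera arrays, so its size is approximate. Angpt1, the ligand of the TIE2 receptor on stem cells and endothelium, differed by -0.11 ± 0.11 (limma adjusted p = 0.531). Egfl7, a secreted protein of endothelium and progenitors and the host gene of a microRNA, read 0.30 ± 0.11 higher and missed the threshold (limma adjusted p = 0.0589, n = 8 per group). Its KO values reached from 1.80 to 2.57 and its control values from 1.76 to 2.14, with 4 KO chimeras above every control. Egfl7 passed under 9 of 31 alternatives, among them without KO chimera 4 (limma adjusted p = 0.0148) and with slide as a block (limma adjusted p = 0.0361).

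Among HOX genes and their partners, 2 of 5 tested fell, 0 rose and 3 did not pass. Meis1 encodes the homeodomain cofactor of HOXA proteins. Its values in KO chimeras ran from -1.06 through a median of -0.63 to -0.43. Those of the controls ran from -0.64 through 0.03 to 0.18. Control 2 held the low end, and the other 7 controls lay above all KO chimeras. Meis1 fell by 0.63 ± 0.12 (SE, n = 8 per group, limma adjusted p = 9.44e-04), a 1.55-fold lower signal. Within scan day 1 the difference was -0.67 (limma adjusted p = 0.0177) and within scan day 2 -0.59, which did not pass (limma adjusted p = 0.0969). The Meis1 probe lies on chromosome 11, 18780695 to 18780754 (mm9).

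Hoxa7, a member of the HOXA cluster active in progenitors, ran from -1.14 through a median of -0.52 to -0.20 in KO chimeras. Controls ran from -0.27 through -0.12 to 0.47. The ranges overlapped, with 6 KO chimeras below the lowest control. Hoxa7 fell by 0.54 ± 0.15 (SE, n = 8 per group, limma adjusted p = 0.0122), 1.46-fold lower. Within scan day 1 it read -0.78 (limma adjusted p = 0.0885) and within scan day 2 -0.30 (limma adjusted p = 0.194), neither past the threshold. Its probe, on chromosome 6, 52165626 to 52165685 (mm9), lies near that of its neighbour Hoxa9 at 52174165 to 52174224, both on the minus strand.

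Hoxa9, the HOXA gene most often tied to leukaemic self-renewal, went the other way in sign and did not pass, with 0.17 ± 0.14 (limma adjusted p = 0.455). Whether the differences of Hoxa7 and Hoxa9 were unequal was not tested. Hoxb4, which expands stem cells when forced on, differed by -0.13 ± 0.15 (limma adjusted p = 0.592). Mllt3, a reader of acylated histones that stem cells need, differed by -0.47 ± 0.27 (limma adjusted p = 0.242) with a wide spread, an SD of 0.69 among KO chimeras and 0.46 among controls.

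The 4 genes that were not kept include 3 of this class. Hoxa5 was above background on 0 KO chimera and 1 control arrays, Hoxa10 on 0 and 0, Nkx2-3 on 4 and 5, and the zinc finger regulator Prdm16 on 0 and 2. Hoxa5 read -0.83 (two-sided exact permutation p = 0.0101), Hoxa10 0.48 (exact p = 0.0869), Nkx2-3 0.28 (exact p = 0.124) and Prdm16 -0.51 (exact p = 0.292, n = 8 per group). As most of these values were not well above background, they give no size for a difference.

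**Figure D3:**
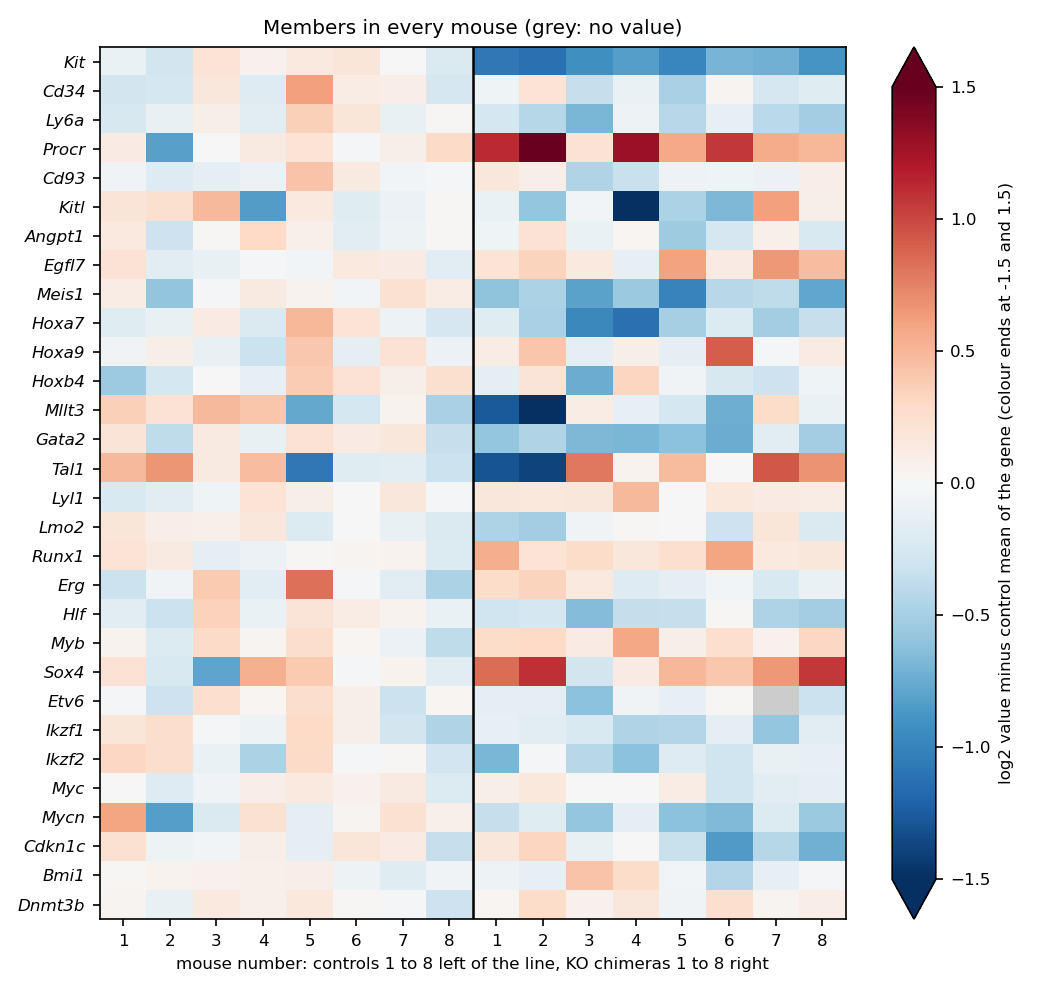
Level of the 30 genes tested in each mouse minus the gene's control mean (log2; blue lower, red higher, colours ending at -1.5 and 1.5; grey marks the Etv6 value left out in KO chimera 7). The Kit row is blue in all 8 KO chimeras, while Tal1 is lowest in KO chimeras 1 and 2 and control 5.

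Of the 6 core transcription factors, 1 rose, 1 fell and 4 did not pass. Gata2, a zinc finger factor that stem cells need and that mast cells and megakaryocyte precursors also use, ran from 0.06 through a median of 0.21 to 0.64 in KO chimeras. In controls it ran from 0.42 through 0.94 to 1.03. The highest KO value was that of KO chimera 7, and the other 7 lay below the lowest control. Gata2 fell by 0.56 ± 0.11 (SE, n = 8 per group, limma adjusted p = 0.00146), which is 1.47-fold lower. Within scan day 1 the difference was -0.74 (limma adjusted p = 0.0104) and within scan day 2 -0.37 (limma adjusted p = 0.224). The probe lies on chromosome 6, 88156362 to 88156421 (mm9).

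Runx1, which encodes the DNA-binding subunit of core binding factor, rose on 1 of its 2 probes. The brighter probe, on chromosome 16, 92605785 to 92605844 (mm9), ran from 2.44 through a median of 2.53 to 2.89 in KO chimeras. The controls ran from 2.09 through 2.33 to 2.50. There 5 KO chimeras lay above every control and 3 within the control range. This probe rose by 0.30 ± 0.09 (SE, n = 8 per group, limma adjusted p = 0.0218), 1.23-fold higher. The other probe, at 92604413 to 92604472, read -0.09 ± 0.09 (limma adjusted p = 0.551 over all probes). The differences of the 2 probes lay 0.38 apart, which did not pass adjustment (exact permutation p = 0.00653, 0.0848 after Benjamini-Hochberg adjustment over 13 pairs, n = 8 per group). The mean of both probes gave 0.10 (limma adjusted p = 0.333), and with slide as a block the brighter probe did not pass (limma adjusted p = 0.0623), so the call of Runx1 rests on the probe read. Within scan days the brighter probe read 0.36 and 0.24 (limma adjusted p = 0.162 and 0.318).

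Tal1, the basic helix-loop-helix factor of stem cells and the erythroid lineage, varied more between mice than any other gene of the 30. Its values ran from 1.43 to 3.74 in KO chimeras (SD 0.91) and from 1.74 to 3.47 in controls (SD 0.56), and the difference was 0.03 ± 0.35 (limma adjusted p = 0.964). Tal1 was lowest in KO chimera 2 and control 5, and highest in KO chimera 7 and control 2. It followed the mean level of 15 erythroid markers, a relation computed after the Tal1 values were seen. In controls r was 0.92 (exact permutation p = 0.00283; Spearman's rho 0.74, exact p = 0.0458) and in KO chimeras 0.99 (exact p = 1.24e-04; rho 0.98, exact p = 3.97e-04), over 8 mice each. After Benjamini-Hochberg adjustment over the 2 relations the p-values of r were 0.00283 and 2.48e-04. Without the 2 mice farthest from the median of the markers r was 0.81 and 0.96. With 4 mice of a group on each scan day, no value within a day was computed. The markers' summed level ran from 881 to 1638 in KO chimeras, against 809 to 1581 in controls. Of the 15 markers 1 was lower past the threshold and 0 higher, 6.67% against 22.3% over all genes tested.

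Lyl1, a close relative of Tal1, differed by 0.17 ± 0.08 (limma adjusted p = 0.149). Lmo2, the bridging protein of the complex, differed by -0.17 ± 0.11 (limma adjusted p = 0.284). The ETS factor gene Erg differed by 0.01 ± 0.16 on its brighter probe (limma adjusted p = 0.982), with a 95% interval from -0.33 to 0.34, and by 0.52 on a dimmer probe that did not pass (limma adjusted p = 0.303 over all probes, n = 8 per group).

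**Figure D4:**
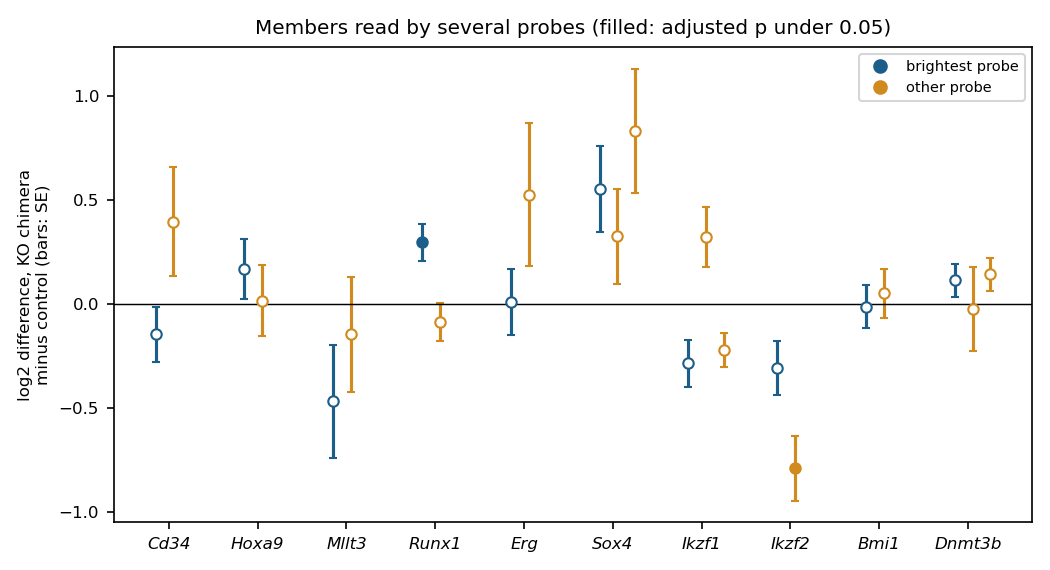
Log2 difference with its SE for the 10 genes read by several kept probes, the brightest probe in blue and the others in orange, filled where the limma adjusted p over all kept probes is under 0.05 (8 mice per group). The Runx1 probes read 0.30 and -0.09, and the Ikzf2 probes -0.31 and -0.79.

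Among the other transcription factors, 1 of 6 tested fell, 0 rose and 5 did not pass. Hlf, a PAR bZIP factor whose expression is largely limited to stem cells in blood, ran from -2.22 through a median of -1.92 to -1.55 in KO chimeras. Controls lay between -1.90 and -1.22, with a median of -1.60. The ranges overlapped, and 5 KO chimeras lay below the lowest control. Hlf fell by 0.36 ± 0.11 (SE, n = 8 per group, limma adjusted p = 0.022), 1.28-fold lower. Its probe lies on chromosome 11, 90200696 to 90200755 (mm9). Within scan days it read -0.43 (limma adjusted p = 0.179) and -0.29 (limma adjusted p = 0.165).

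The Ikaros family gave uneven readings. Ikzf1, the lymphoid regulator Ikaros, read -0.29 ± 0.11 on its brightest probe (limma adjusted p = 0.08) and -0.22 and 0.32 on its other probes. Neither pair of Ikzf1 probes differed past the threshold (Benjamini-Hochberg adjusted exact permutation p = 0.0855 and 0.689 over 13 pairs, n = 8 per group). Ikzf2, which encodes Helios, read -0.31 ± 0.13 on the brightest probe (limma adjusted p = 0.101) and -0.79 ± 0.16 on a dimmer one, which fell (limma adjusted p = 0.00143 over all probes, where 23.6% of 32675 probes were called). The values of that dimmer probe were -3.36 to -2.16 in KO chimeras and -2.43 to -1.57 in controls, overlapping. The 2 Ikzf2 probes did not differ from each other past the threshold (Benjamini-Hochberg adjusted exact permutation p = 0.119). With the mean of its probes Ikzf2 passed at -0.55 (limma adjusted p = 9.09e-04).

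Sox4, a factor of early B cell and leukaemic progenitors, read 0.55 ± 0.21 higher (limma adjusted p = 0.0679), with 0.32 and 0.83 on its other probes. Its values ran from 0.48 to 1.85 in KO chimeras, against -0.04 to 1.29 in controls, and 4 KO chimeras lay above every control. Sox4 passed without control 4 (limma adjusted p = 0.0437), without KO chimera 3 (limma adjusted p = 0.02) and without KO chimera 4 (limma adjusted p = 0.0494), and within scan day 2 at 0.81 (limma adjusted p = 0.0121) but not within scan day 1 at 0.29 (limma adjusted p = 0.691). On 1 of the 5 slides with both groups it read lower in KO chimeras (-0.61). Of 13 early B lineage markers tested, 4 rose and 0 fell, 30.8% against 22.3% over all genes. The median difference of the 13 was 0.55, and Cd79a (-0.59) and Cd79b (-0.35), named after their values were seen and not past the threshold, were the 2 with a negative sign. Their summed level was 78.6 to 193 in KO chimeras and 50.6 to 171 in controls, and their part in the Sox4 values was not tested. Myb, which progenitors need to proliferate, read 0.25 ± 0.10 (limma adjusted p = 0.0928), and Etv6, an ETS repressor of stem cells, -0.20 ± 0.11 (limma adjusted p = 0.24, with 7 KO chimeras since the spot of KO chimera 7 was an outlier).

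Of the 5 regulators of growth, cell cycle and chromatin, 0 passed. Mycn, a MYC family member active in stem cells, read -0.41 ± 0.16 (limma adjusted p = 0.0725) and passed without control 2 (-0.53, limma adjusted p = 0.00647). Myc differed by -0.03 ± 0.08 (limma adjusted p = 0.82) and Cdkn1c, the cell cycle inhibitor p57, by -0.25 ± 0.15 (limma adjusted p = 0.289). The Polycomb gene Bmi1 differed by -0.01 ± 0.10 (limma adjusted p = 0.941) and the DNA methyltransferase gene Dnmt3b by 0.11 ± 0.08 (limma adjusted p = 0.344). The 95% interval of the Myc difference ran from -0.21 to 0.14 and that of Bmi1 from -0.23 to 0.20, with 8 mice per group.

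The 8 genes called kept 1 direction on each of the 5 slides that held both groups. They were called over these same mice, so this gives no separate support. Egfl7, Hoxa9, Lyl1, Myb, Ikzf2 and Dnmt3b, which were not called, also kept 1 direction on all 5. Each of these slides held 1 or 2 mice of a group, and the share over all genes was not computed. On single slides Kit ranged from -0.98 to -0.61, Meis1 from -0.92 to -0.19, Gata2 from -0.79 to -0.13 and Procr from 0.50 to 1.31. Hoxa7 ranged from -0.83 to -0.09, Hlf from -0.44 to -0.19, Ly6a from -0.41 to -0.21 and Runx1 from 0.02 to 0.60. With slide as a block 21% of all genes tested passed, and 6 of these 8 did, all but Ly6a and Runx1. KO chimera 7 was the one closest to the control mean for Meis1, Gata2 and Runx1, and without that mouse all 8 genes passed.

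**Figure D5:**
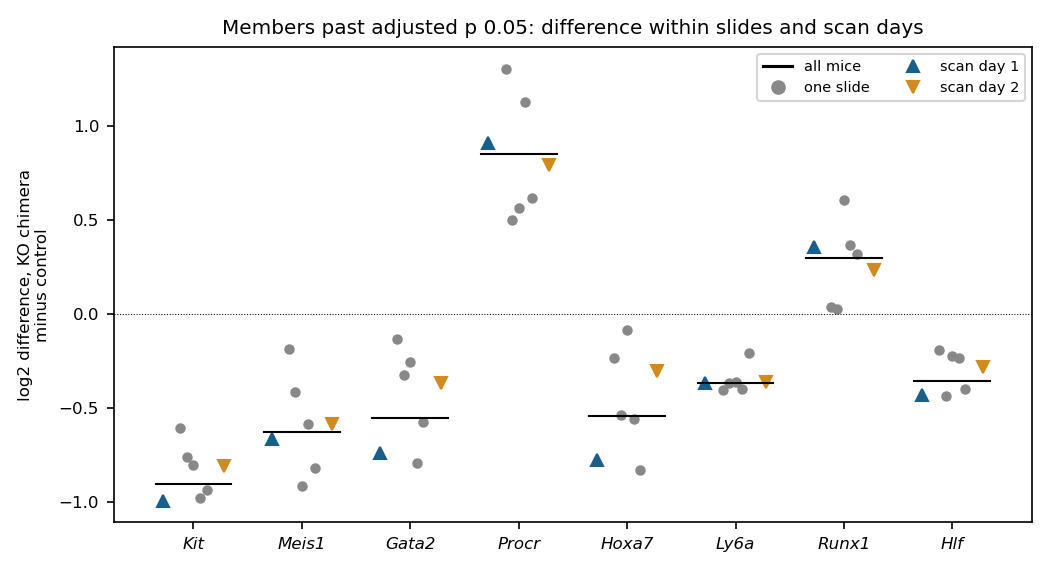
Log2 difference, KO chimera minus control, of the 8 genes past adjusted p 0.05 over all mice (lines), on each of the 5 slides with both groups (grey points) and on each scan day (triangles; 4 mice per group). Every point lies on the same side of 0 as the line of its gene, with Kit between -0.996 and -0.61. The genes were called over these same mice.

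Megakaryocyte markers and part of the mast cell and basophil markers were lower beside the genes that fell. Of 14 megakaryocyte markers 10 were lower and 0 higher, 71.4% called against 22.3% over all genes tested. None of the 14 was below background on all arrays. Their summed level ran from 46.2 to 77.9 in KO chimeras, against 72.7 to 109 in controls, overlapping. Without Pf4, the marker with the largest linear difference, the ranges were 29.5 to 40.7 and 46.8 to 62.9 and did not overlap. The named examples by smallest p were Itgb3 at -1.57 ± 0.12 and Clec1b at -2.87 ± 0.22 (limma adjusted p = 3.66e-08 and 5.6e-08, n = 8 per group). These are their brightest probes. A second Itgb3 probe read -0.57, and the other Clec1b probes read -2.87 and -0.76, so the sizes depend on the probe. Of 9 mast cell and basophil markers tested 5 were lower and 0 higher, 55.6% called against the same 22.3%. The summed level of the 9 ran from 57.4 to 78.5 in KO chimeras, against 85.7 to 132 in controls, with no overlap. Without Hdc, the marker with the largest linear difference, the ranges were 42.0 to 56.9 and 43.5 to 81.4 and overlapped. Hdc, the histamine-forming enzyme, read -1.29 ± 0.12 and Prss34, a basophil protease, -0.49 ± 0.12 (limma adjusted p = 6.43e-07 and 0.00545). Il4 read -0.66 ± 0.16, Fcer1a -0.46 ± 0.13 and Cpa3 -0.50 ± 0.14, also lower (limma adjusted p = 0.00644, 0.0142 and 0.0149). Mcpt4 (0.59 ± 0.23, limma adjusted p = 0.0722) and Tpsb2 (-0.04 ± 0.24, limma adjusted p = 0.934), both mast cell proteases, did not pass. Neither did Mcpt8 (-0.23 ± 0.17, limma adjusted p = 0.364) or Ms4a2 (0.14 ± 0.24, limma adjusted p = 0.722). Cpa3 and the markers that did not pass were named after their values were seen. Among defining mast cell markers Tpsab1 was above background on no array, and Cma1 and Mrgprb2 were not tested. Mast cells express Kit and Gata2, megakaryocytes express Gata2 and Meis1, and the part of these cells in the differences of the 3 genes was not tested. Granulocyte progenitor markers gave 1 higher and 1 lower of 7 (28.6%), and cell cycle markers 1 higher and 1 lower of 13 (15.4%). Both shares lie near the 22.3% of all genes tested. All of these lists were chosen with earlier results of these data known.

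A further list of 59 genes, drawn up for the stem and progenitor programme, had 48 tested. Of these 3 were higher and 6 lower, 18.8% against the background of 22.3%, with a median of -0.06. The list was chosen with earlier results of these data known. Whether each of its genes, Etv3 among them, belongs to the programme was not tested. Etv3, an ETS repressor, differed by -1.30 ± 0.13, the forkhead factor Foxo3, which keeps stem cells quiescent, by 1.07 ± 0.12, the pseudokinase gene Trib2 by 1.25 ± 0.16, and Spi1, the myeloid factor PU.1, by 0.96 ± 0.15 (limma adjusted p 1.31e-04 or less, n = 8 per group). Of 27 tested genes of signalling from KIT, 1 was higher and 3 lower, 14.8%, with a median of -0.04. The kinase Jak2 differed by -0.49 ± 0.09 (limma adjusted p = 8.29e-04). The ubiquitin ligase Cblb read -0.46 ± 0.10 on its brighter probe (limma adjusted p = 0.00217) and -0.10 on another. Socs6, which binds KIT and limits it, read 0.70 ± 0.14 on its brighter probe (limma adjusted p = 0.00122) and -0.13 on another. Spred1, an inhibitor of RAS signalling, read -0.31 ± 0.10 (limma adjusted p = 0.0361) and 0.04 on another probe.

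Of 20 tested genes of the marrow niche 8 were higher and 3 lower, 55% against 22.3% over all genes, with a median of 0.25. The list was chosen with earlier results of these data known, so this share gives no separate support. Bmp4, a growth factor of stroma and endothelium, rose by 1.43 ± 0.17, the endothelial receptor gene Tie1 by 1.39 ± 0.17, and Cxcr4, the homing receptor for CXCL12, by 0.53 ± 0.09 (limma adjusted p = 7.04e-06, 1.3e-05 and 5.24e-04, n = 8 per group). Itga4, the chain of the integrin VLA-4 that holds progenitors in marrow, read -2.40 ± 0.30 on its brightest probe (limma adjusted p = 1.49e-05). A second Itga4 probe read 0.00, which leaves the gene, counted among the 3 lower, without a clear direction. Vcam1, also among the 3, read -0.58 ± 0.16 on its brightest probe (limma adjusted p = 0.0149) and 0.24 on another. Itga5, the remaining gene called lower, read -0.65 ± 0.18 on its 1 kept probe (limma adjusted p = 0.012). Tie1 also stands in the endothelial marker list and Cxcl12, which was higher, in the stromal one. Of 10 stromal markers 1 was higher and 0 lower, 10% called against the same 22.3%. Pdgfra, also listed, was above background on no array. The summed level of the 10 ran from 20.9 to 27.0 in KO chimeras and 13.9 to 27.8 in controls. The part of stromal cells in the niche genes was not tested.

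How the genes varied together was read within each group, so that the difference between groups gave no relation. Kit was set against each of 28 other genes measured on all arrays, 56 relations in all, and 0 passed Benjamini-Hochberg adjustment (exact or permutation test of Pearson's r, lowest adjusted p = 0.149). Unadjusted, 8 relations were under 0.05, 5 in controls and 3 in KO chimeras. In controls the lowest p was that of Kit with Hlf (r = 0.87, exact permutation p = 0.00563, adjusted 0.158; rho 0.86; r = 0.83 without 2 mice). In KO chimeras it was that of Kit with Myc (r = -0.90, exact permutation p = 0.00265, adjusted 0.149; rho -0.95; r = -0.81 without 2 mice). After quantile normalization the relation with Myc in KO chimeras was the single one to pass (r = -0.95, exact permutation p = 7.44e-05, adjusted 0.00417, n = 8 mice). With 4 mice of a group on each scan day, none of the relations was computed within a day.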

How the data were processed

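Total RNA from bone marrow, extracted with Trizol and labelled with Cy3 per the labels' protocols, was measured on 1 array for each of 16 mice. Groups and numbers came from the sample titles. Part of the donors' strain designation is not reported here. The deposited scanner files hold the linear intensity of each spot with background already subtracted, made with Agilent Feature Extraction 10.1.1.1 per the file headers (version 10.7 in the submitters' processing notes). The authors' deposited value table holds log2 values of 59305 spots, with 24.3% to 24.8% of each column at a floor of 2.3 and column medians from 4.98 to 5.00. Off that floor it followed the scanner values at r of 0.9997 or more, which sets its scale and direction; how it was centred stays unknown here.

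The log2 processed signal of each non-control spot was expressed relative to the 75th percentile of its array. Outlier spots (123 to 966 an array) were dropped and replicate spots averaged; no spot reached saturation. Probes well above background on at least 6 of 8 arrays of either group were kept (32675 of 55681), and the brightest such probe stood for its gene name (23053 genes). Names are those of the array design. Groups were compared over all genes with limma 3.58.1 in R 4.3.3 (lmFit, eBayes, two-sided, Benjamini-Hochberg adjustment). Exact permutation tests used scipy 1.17.1. Labels describe separate mice, and their number limits the precision of every value.

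The 34 genes and all lists were chosen with earlier results of these data known. Every one of the 34 is accounted for by role. Up to 4 genes of each further list could be named, by smallest p, and further ones were named after their values were seen. Lists are described by counts, without a set test. On simulated data for this comparison (22303 genes, 50 changed at each size), limma recovered 25 of 50 changes of 0.5, 40 of 50 of 1, 49 of 50 of 2 and 45 of 50 of -1, with 5 false calls. The simulation changed 200 genes in all, whereas 22.3% of genes were called in the data. Its adjusted threshold therefore differs, and these recoveries do not give the power of the real fit. Alternatives were quantile normalization, normexp background correction, the authors' table, other filters and probe rules, blocks for slide, scan day and replicate number, array brightness, array weights, a variance trend, each scan day alone and leaving out each mouse. Tests between probes, marker sums without their largest marker and the relation of Tal1 with erythroid markers were added after seeing the data.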

Additional observations from a re-analysis of the deposited data

Results flagged for a closer look

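Levels of the 30 genes were searched within each group of 8 mice for a mouse standing far from the rest, 60 groups in all, of which chance marks about 1 in 20. Procr in control 2 read -4.26, with the nearest control at -3.46. Meis1 in control 2 read -0.64, with the nearest control at -0.09. Lyl1 in KO chimera 4 read 6.06, with the nearest KO chimera at 5.74. Both Procr and Meis1 passed without control 2.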

How the results depend on the processing

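Kit kept its direction and its call under all 31 alternatives (-0.996 to -0.81, limma adjusted p 4.01e-07 to 0.0062). No gene called reversed. Calls were lost within scan day 1 alone for Ly6a, Procr, Hoxa7, Runx1 and Hlf, within scan day 2 alone for these and for Meis1 and Gata2, with slide as a block for Ly6a and Runx1, and with the mean of probes for Runx1. These fits within a day have fewer mice. Within scan day 1, 0 of the 30 genes were higher and 3 lower, 3 of the extended list and 1 of the KIT signalling list were lower, niche genes gave 2 higher and 1 lower, and 1608 of all genes passed. Within scan day 2 the 30 genes gave 1 higher and 1 lower, the extended list 1 lower, the signalling list 0 higher and 0 lower, niche genes 1 lower, and all genes 2314. With the mean of a gene's probes 1 of the 30 was higher and 1 signalling gene lower. Array weights gave 4 of the 30 higher and 9 lower, with Ikzf1, Mycn and Cdkn1c (limma adjusted p = 0.0205) gained among the lower. Calls rose across the array under that setting, to 6228 of 23053 genes, against 5143 in the main fit. Tested per probe, the extended list gave 5 higher and 12 lower and the signalling list 3 higher, where 23.6% of all 32675 probes were called. Quantile normalization let 1 relation of Kit pass. The cause of these shifts was not tested. Signal over background limits Kitl and the 4 genes that were not kept.

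Leaving out each mouse gave 2 to 4 of the 30 higher and 6 to 7 lower, 3 to 6 and 5 to 7 of the extended list, 1 to 2 and 2 to 4 of the signalling list, 7 to 9 and 3 to 4 of the niche list, 4401 to 5326 of all genes, and a median of -0.17 to -0.11. The 4 came without KO chimera 4, the 6 without control 5 and the 2 signalling genes without control 1. Ikzf1 passed without control 8 (limma adjusted p = 0.0215) and Ikzf2 without control 4 (0.0392).

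Mice of the same number deviated together in 2 of 8 numbers only (correlation over 0.1), none best with its own number, so the numbers do not pair the mice. With the replicate number as a block 2 of the 30 were higher and 5 lower, Hlf being the gene lost (limma adjusted p = 0.058), and 4732 of all genes passed.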
